A study of Mus musculus with 19 samples.

Results

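DNA replication and G1/S genes are the genes that a cell turns on as it commits to copying its genome, and 48 of them were followed here by name in neural progenitor cells. They were taken from a list of gene symbols, 48 of the 26621 genes in the count table, and all 48 had enough reads to be among the 13105 genes tested. The list was chosen with earlier results of these data known. Shares of members set against shares of all genes therefore describe this list only. The cells were cultured progenitors of the mouse cerebral cortex from embryonic day 17.5, grown on Matrigel with the growth factors bFGF and EGF at 20 ng/mL each, either with a conditional knockout (cKO) of Mettl8 or wild type (WT). Mettl8 encodes a mitochondrial enzyme that makes 3-methylcytidine (m3C) in certain tRNAs. RNA-seq libraries (SMART-seq2, from 300 ng of total RNA) were made from 6 cKO and 6 WT samples, and 3 cKO and 4 WT samples (8000 ng each) went into HAC-seq, which cleaves RNA at m3C with hydrazine and aniline and reads the ends. The library names divide the RNA-seq libraries into 2 sets: 4 cKO libraries (replicates 3 to 6) and 3 WT libraries (replicates 4 to 6) make up set 2, while 2 cKO libraries (replicates 1 and 2) and 3 WT libraries (replicates 1 to 3) make up set 1. The labels name neither the meaning of the sets nor the Cre line, the deleted part of Mettl8 or the animals behind each culture. P-values therefore describe the scatter among these libraries, some or all of which may be technical.

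Replication starts at origins, where the origin recognition complex (Orc1, Orc6) with Cdc6 and Cdt1 loads the Mcm2 to Mcm7 helicase in G1 phase. Cdc45 and the GINS complex (Gins1 to Gins4) turn that helicase on with the help of Mcm10, primase and the DNA polymerases copy the strands, and the clamp Pcna, loaded by the Rfc complex, keeps polymerases on the template. Entry into S phase is governed by cyclins D and E and by the transcription factor E2F1, which, with its relatives, binds the promoters of many of these same genes. In the embryonic cortex, progenitors pass repeatedly through S phase, and the cycle lengthens as they turn to making neurons and glia.

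The E2F motif is shown first, because it was more common in the members' promoters than in others and the selection did not use it. RefSeq promoter windows (300 bases, from 250 before to 50 after the transcription start, build GRCm38.p6) were found for 37 of the 48 members. At least 1 of the E2F spellings TTTCCCGC, TTTGGCGC, TTTCGCGC or TTTGCCGC, searched on both strands, lay in the windows of 15 of these 37 members (40.5%), against 2.61% of all 27025 genes with a window and 4.84% of the 9118 of them that were tested. Stretches around the motif are printed 5′ to 3′ on the strand of the gene, with the motif in capitals. Those of 6 members that were higher in library set 2 come first, then those of 3 that did not pass the test, to show that both kinds carry it:
Orc1: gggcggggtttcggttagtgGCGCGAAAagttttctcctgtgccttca
Cdc6: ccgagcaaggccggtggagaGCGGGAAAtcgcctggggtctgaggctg
Mcm3: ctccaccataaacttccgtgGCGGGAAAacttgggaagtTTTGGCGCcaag
Mcm6: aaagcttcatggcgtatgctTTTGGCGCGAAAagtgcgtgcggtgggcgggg
Pole2: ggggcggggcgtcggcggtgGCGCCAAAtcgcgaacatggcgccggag
Rfc3: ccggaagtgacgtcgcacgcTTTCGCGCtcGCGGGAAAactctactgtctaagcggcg
Mcm5: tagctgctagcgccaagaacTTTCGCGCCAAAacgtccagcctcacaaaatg
Pola1: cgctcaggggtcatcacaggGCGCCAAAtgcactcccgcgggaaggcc
Uhrf1: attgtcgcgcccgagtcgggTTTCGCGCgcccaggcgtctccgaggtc

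These stretches lie at chr4:108579407-108579454 (plus strand, Orc1), chr11:98907993-98908040 (plus, Cdc6), chr1:20820263-20820313 (minus, Mcm3), chr1:128359784-128359835 (minus, Mcm6), chr12:69228153-69228200 (minus, Pole2), chr5:151651181-151651238 (minus, Rfc3), chr8:75109336-75109387 (plus, Mcm5), chrX:93632266-93632313 (minus, Pola1) and chr17:56304108-56304155 (plus, Uhrf1). In Mcm5 and Mcm6 matches on both strands overlap and the capitals run on, and the Mcm6 window holds 1 more match outside the stretch shown. Other promoter motifs were searched in the same windows. The CHR spellings TTTGAA or TTCGAA were in 6 of 37 members (16.2%, against 15.98% of tested genes with a window), CCAAT in 22 (59.5%, against 43.8%) and the GC box GGGCGG in 27 (73.0%, against 69.8%). A match describes the letters of the window and is no evidence of binding.

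Sequencing gave 11830839 to 18863781 counts per library, with fewer in cKO than in WT libraries on average. Mettl8 itself was read at 59.3 to 80.9 CPM (TMM-scaled counts relative to library size) in the libraries labelled cKO and at 35.9 to 58.6 CPM in WT, so that every library labelled cKO lay above every WT library (log2 fold change 0.67, SE 0.120, edgeR adjusted p = 0.265). Counts of the whole gene do not isolate the deleted part, so these levels do not check the knockout in the RNA-seq libraries, and the groups are called by their labels throughout. Among the HAC-seq libraries a known METTL8 target in mitochondrial tRNA-Thr (chromosome MT, position 15317) was cleaved in 2.10% ± 0.405 of reads in cKO (SD, n = 3) and in 94.4% ± 0.484 in WT (SD, n = 4). Progenitor markers such as Sox2, Nes, Pax6 and Fabp7 were read in all 12 RNA-seq libraries, whereas of the 8 microglial markers Tmem119, C1qa and Trem2 were at 0 in all 12, Aif1, Cx3cr1, C1qb and Csf1r reached at most 0.574 CPM, and P2ry12 was read in all 12 at up to 7.77 CPM. The sets came apart along principal component 1, which held 48.5% of the variance. Xist had 0 counts in cKO replicates 1 and 5 and at least 2537 in the other 10 libraries. Of the 48 genes, 21 overlap another annotated RefSeq gene, among them Ccnd1, Orc1, E2f1 and Fen1. Their reads may not be told apart from those of the overlapping gene because no strand setting is given.

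In cKO against WT progenitors, no member of the replication and G1/S genes passed the threshold, an adjusted p under 0.05 over all 13105 genes in edgeR's quasi-likelihood test with library set as a term. The share of all genes that passed was likewise 0%. DESeq2 and limma-voom also called 0 of the 48. At an unadjusted p under 0.05, 5 members were higher in cKO (10.4%, against 2.86% of all genes) and 0 were lower (3.28% of all genes). The 5 became 3 without cKO replicate 4, 2 without WT replicate 5 and 2 without WT replicate 6. The count was 6 without WT replicate 2 and 7 without WT replicate 4. Over all genes, both directions together, 805 were under that p with all libraries. In the fits just named, in that order, 703, 576, 538, 680 and 825 were. Of the 48 log2 fold changes 40 lay above 0 (83.3%, against 49.6% of all genes), with a median of 0.06 for the members and -0.001 for all genes, and a range from -0.16 (E2f1) to 0.30 (Uhrf1). Without cKO replicate 4 the median was 0.02, with 32 above 0. Over all 12 libraries the cKO and WT values of each of the 48 genes overlapped. How many of all genes overlapped in this way was not counted, so nothing about the members is read from it.

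**Figure D1:**
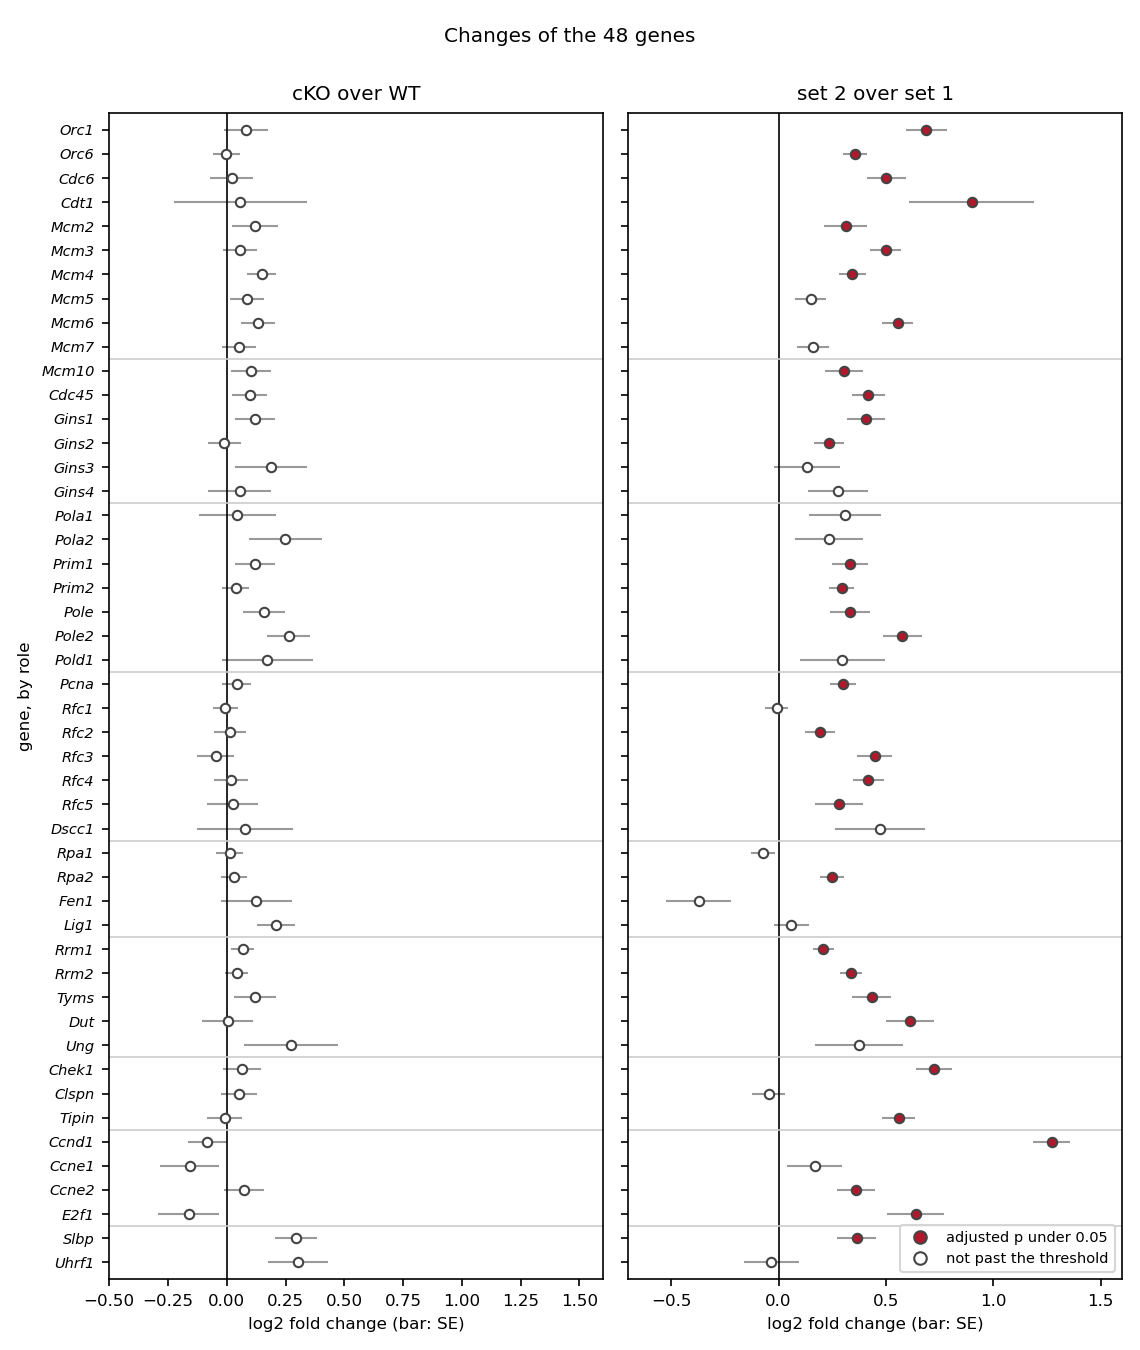
Log2 fold change of each of the 48 genes, ordered by role, in cKO over WT (left) and in library set 2 over set 1 (right). Points are edgeR estimates, bars their standard errors, and filled points passed an adjusted p under 0.05. No point is filled on the left, and 32 are filled on the right, where all filled points lie above 0.

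The largest genotype differences relative to their error were in Slbp, whose protein binds the stem-loop of histone mRNAs, and in Pole2, a subunit of DNA polymerase epsilon. Slbp stood at 45.1, 56.2, 43.5 and 48.7 CPM in the 4 cKO libraries of set 2, against 38.4, 36.4 and 40.4 CPM in the 3 WT libraries. In set 1 it stood at 39.0 and 33.6 CPM in cKO, against 32.5, 25.4 and 34.2 CPM in WT. In set 2 all cKO libraries thus lay above all WT libraries, and in set 1 they overlapped. The log2 fold change was 0.30 (SE 0.0894, unadjusted p = 0.00366, edgeR adjusted p = 0.803). Pole2 stood at 41.7, 56.1, 47.7 and 45.1 CPM in cKO and 43.3, 38.0 and 33.9 CPM in WT in set 2. In set 1 its levels were 28.1 and 33.0 CPM in cKO, and 28.9, 25.6 and 25.7 CPM in WT. Its log2 fold change was 0.26 (SE 0.0901, unadjusted p = 0.00882, edgeR adjusted p = 0.803), and the genotypes overlapped in both sets.

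Of the other 4 genes with the smallest p-values, 3 had an unadjusted p under 0.05. Lig1, the ligase that seals Okazaki fragments, stood at 155, 173, 137 and 128 CPM in cKO against 126, 116 and 114 CPM in WT in set 2, and at 132 and 126 CPM in cKO against 140, 119 and 114 CPM in WT in set 1. Its log2 fold change was 0.21 (SE 0.0803, unadjusted p = 0.0177). Uhrf1, which recruits the maintenance DNA methyltransferase to newly copied DNA, stood at 86.5, 97.7, 76.2 and 71.8 CPM in cKO against 64.5, 53.3 and 60.01 CPM in WT in set 2. In set 1 it stood at 71.6 and 72.5 CPM in cKO, against 95.7, 61.2 and 52.9 CPM in WT, where WT replicate 1 was the highest. Both genes were higher in every cKO than in every WT library of set 2, and in neither did set 1 show this. Uhrf1 had a log2 fold change of 0.30 (SE 0.126, unadjusted p = 0.0269). Among the helicase subunits Mcm4 averaged 416 ± 66.7 CPM in cKO and 358 ± 42.6 CPM in WT (SD, n = 6 each), a log2 fold change of 0.15 (SE 0.0619, unadjusted p = 0.0265). Mcm6 averaged 115 ± 26.8 CPM in cKO and 97.8 ± 18.94 CPM in WT (SD, n = 6 each), a log2 fold change of 0.13 (SE 0.0706, unadjusted p = 0.0743). The means and SDs of Mcm4 and Mcm6 pool both sets, which differed in these genes and hold unequal numbers of cKO and WT libraries. The log2 fold changes have library set as a term. The edgeR adjusted p was 0.803 for Lig1, Uhrf1 and Mcm4 and 0.813 for Mcm6.

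By role, the values in cKO over WT lay above 0 for 9 of 10 licensing genes (median log2 fold change 0.07), 5 of 6 genes of helicase activation (0.10), 7 of 7 primase and polymerase genes (0.16) and 5 of 7 clamp and loader genes (0.02). They lay above 0 for 4 of 4 genes of single-strand binding and Okazaki fragments (0.08), 5 of 5 genes of nucleotide supply and uracil removal (0.07), 2 of 3 fork checkpoint genes (0.05) and both Slbp and Uhrf1. The G1/S regulators were the exception, with 3 of 4 below 0: cyclin D1 (Ccnd1) at -0.08, cyclin E1 (Ccne1) at -0.16 and E2f1 at -0.16, while cyclin E2 (Ccne2) was at 0.07. None of these passed the test, and the difference between roles was not tested.

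The library sets differed in most of these genes. In set 2 against set 1, 32 of the 48 genes were higher (66.7%, against 21.5% of all genes) and 0 were lower (22.2% of all genes) in edgeR's quasi-likelihood test, DESeq2 called the same 32 higher and 0 lower, and at an unadjusted p under 0.05 edgeR gave 34 higher (25.2% of all genes) and 1 lower, Fen1 (25.6% of all genes). limma-voom called 31 of these 32 higher and 1 lower. The median log2 fold change was 0.33 for the members and 0.0012 for all genes, and 43 of the 48 lay above 0. For 24 members every set 2 library lay above every set 1 library (50%, against 11.7% of all genes), and for 0 members every set 2 library lay below (11.9% of all genes). The summed level of the 48 genes was 8441 ± 677 CPM in set 2 (SD, n = 7) and 6809 ± 269 CPM in set 1 (SD, n = 5). In bulk RNA, a larger share of cells in S phase and more RNA of these genes per cell cannot be told apart.

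**Figure D2:**
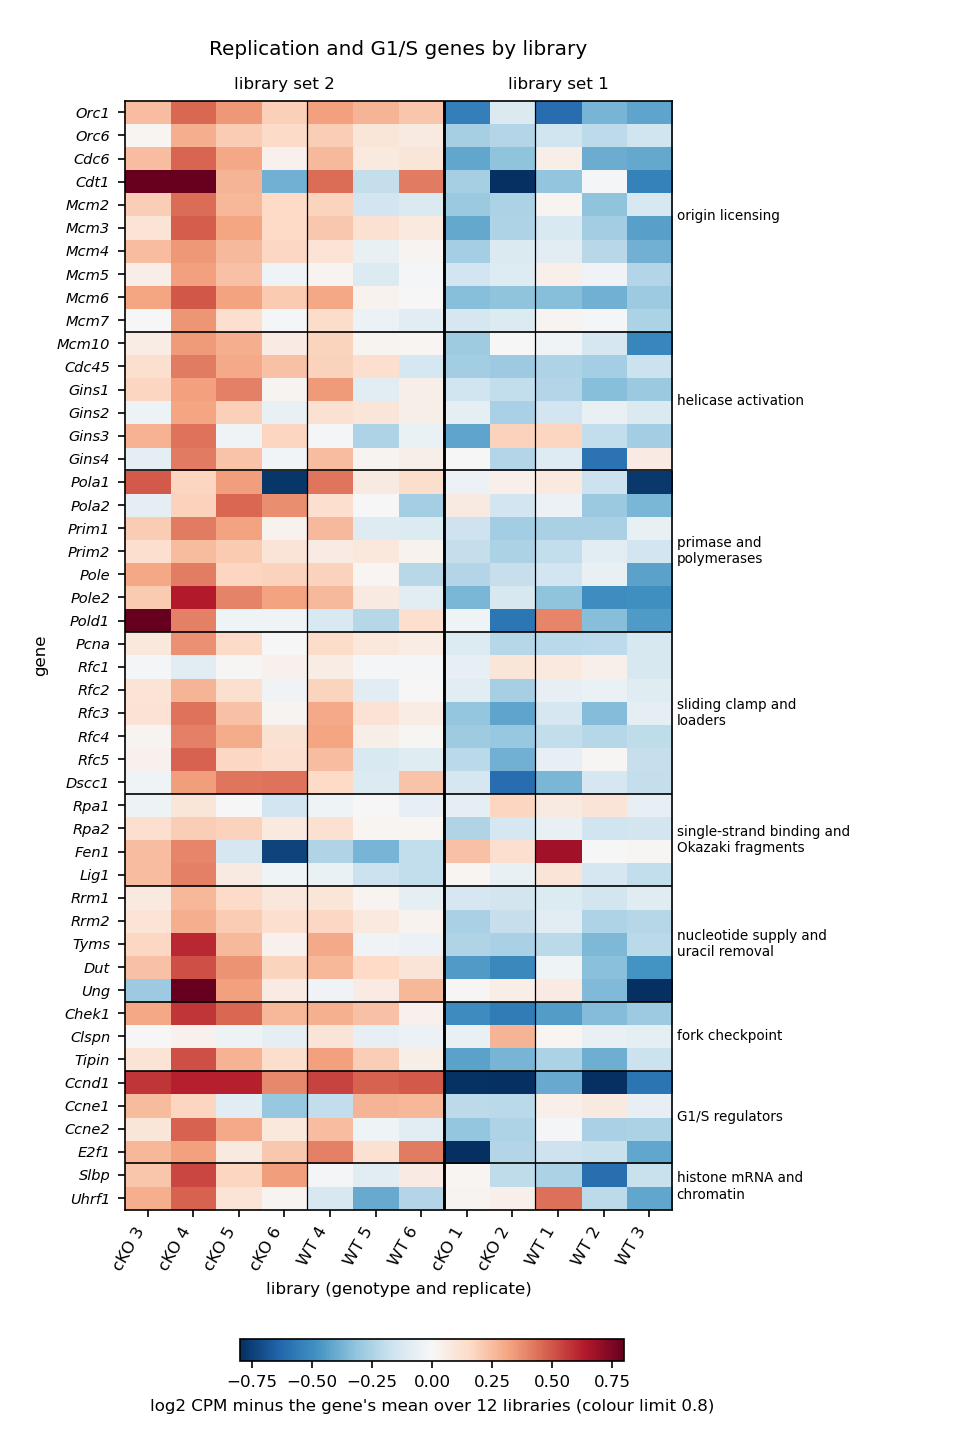
Levels of the 48 genes in the 12 libraries, as log2 CPM minus the mean of the gene over the libraries, with cKO left of WT within each set and set 2 left of set 1. Red is above and blue below that mean. Most rows are red in set 2 and blue in set 1, and cKO replicate 4 is the reddest column. Rfc1, Rpa1, Clspn, Fen1, Uhrf1 and Lig1 are among the rows that do not show this difference between sets.

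Cyclin D1, which couples growth factor signals to the cycle in G1, had the largest difference of the 48. Ccnd1 stood at 281, 291, 291 and 247 CPM in cKO and 275, 263 and 266 CPM in WT in set 2. In set 1 it stood at 109 and 93.3 CPM in cKO and 143, 101 and 126 CPM in WT, so that the lowest set 2 library was well above the highest set 1 library. The log2 fold change of set 2 over set 1 was 1.27 (SE 0.0874, edgeR adjusted p = 1.38e-09), a 2.42-fold level. Chek1, the checkpoint kinase that guards stalled forks, averaged 107 ± 12.8 CPM in set 2 (SD, n = 7) and 64.2 ± 4.92 CPM in set 1 (SD, n = 5). Its log2 fold change was 0.73 (SE 0.0836, edgeR adjusted p = 1.08e-06). E2f1, the transcription factor of the G1/S switch, averaged 10.6 ± 0.972 CPM in set 2 (SD, n = 7) and 6.92 ± 1.22 CPM in set 1 (SD, n = 5), a log2 fold change of 0.64 (SE 0.134, edgeR adjusted p = 6.91e-04). Of the other G1/S regulators, Ccne2 was called higher (0.36) and Ccne1 was not (0.17, SE 0.126).

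Among the licensing genes 8 of 10 were called higher. Orc1, the largest subunit of the origin recognition complex, stood at 24.7, 28.6, 26.5 and 23.8 CPM in cKO and 26.1, 25.2 and 24.2 CPM in WT in set 2. In set 1 it stood at 14.3 and 19.2 CPM in cKO and 13.6, 16.1 and 15.6 CPM in WT, with no overlap between the sets. The log2 fold change was 0.69 (SE 0.0971, edgeR adjusted p = 1.21e-05). Cdt1, the helicase loading factor that is destroyed in S phase, was a low and variable gene: 8.49, 9.04, 4.99 and 3.16 CPM in cKO and 5.62, 3.61 and 5.50 CPM in WT in set 2, against 3.44 and 1.36 CPM in cKO and 3.31, 4.11 and 2.84 CPM in WT in set 1. Its log2 fold change was 0.90 (SE 0.291, edgeR adjusted p = 0.0172), the sets overlapped, and with cKO replicate 2 left out Cdt1 no longer passed (0.64, adjusted p = 0.0770). Of the helicase subunits Mcm4 averaged 428 ± 41.8 CPM in set 2 (SD, n = 7) and 330 ± 27.4 CPM in set 1 (SD, n = 5), a log2 fold change of 0.34 (SE 0.0632, edgeR adjusted p = 2.08e-04). Mcm6 (0.56), Mcm3 (0.50) and Mcm2 (0.31) were also called, as were Cdc6 (0.50) and Orc6 (0.36), while Mcm5 (0.15, SE 0.0732) and Mcm7 (0.16, SE 0.0736) did not pass. Mcm2 to Mcm7 form a single ring, which Orc1, Orc6, Cdc6 and Cdt1 load onto DNA.

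**Figure D3:**
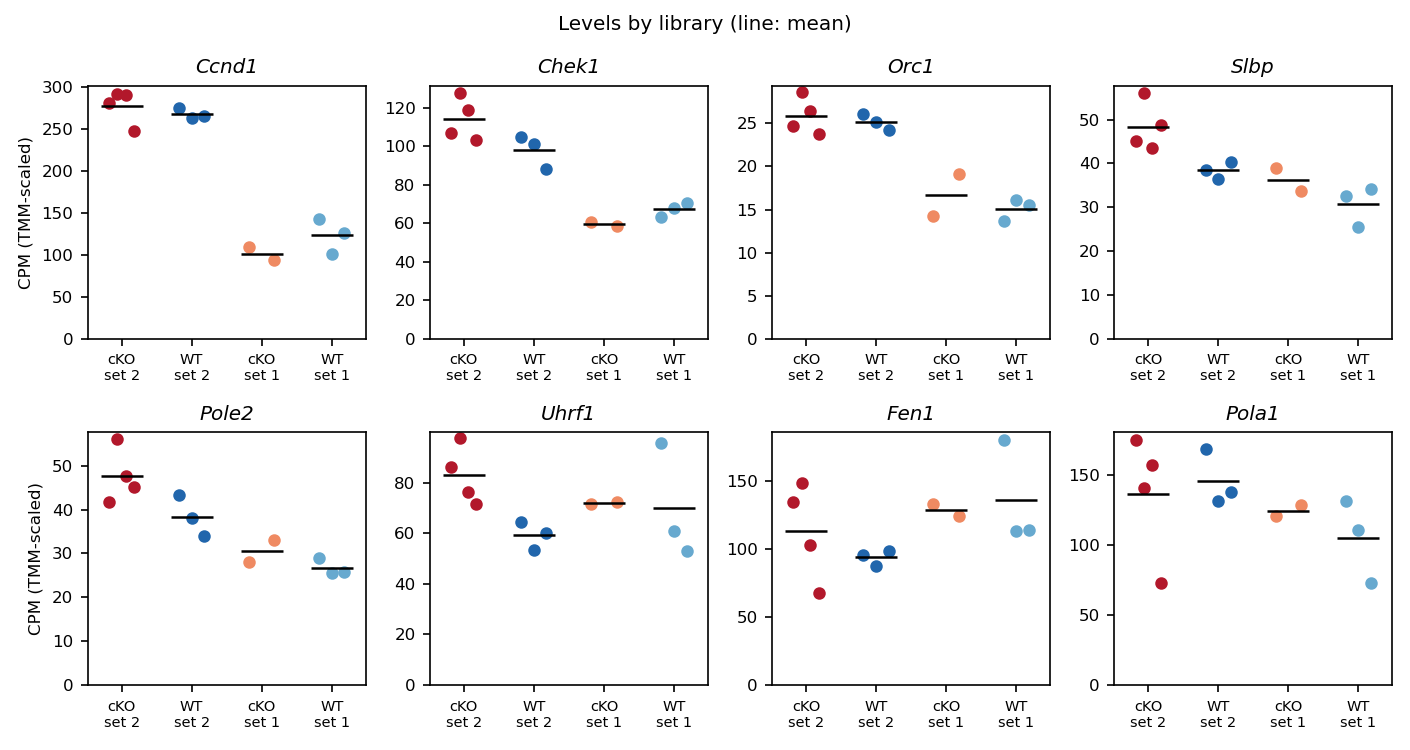
Levels in CPM of 8 of the genes in each RNA-seq library, by genotype and set, with a line at the group mean. Ccnd1, Chek1 and Orc1 separate the sets without overlap, Slbp and Uhrf1 separate the genotypes within set 2 only, and Fen1 and Pola1 each have single libraries far from their group.

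Genes of helicase activation were called higher in 4 of 6 cases. Gins2, the most read of them, averaged 101 ± 9.47 CPM in set 2 (SD, n = 7) and 86.2 ± 4.68 CPM in set 1 (SD, n = 5), a log2 fold change of 0.23 (SE 0.0712, edgeR adjusted p = 0.0119), but it did not pass with cKO replicate 2 left out (adjusted p = 0.0599). Cdc45 (0.42), Gins1 (0.41) and Mcm10 (0.30) were called too, and the low genes Gins3 (0.13, SE 0.155) and Gins4 (0.28, SE 0.138) were not. Of the primase and polymerase genes 4 of 7 were called: Pole2 (0.58), Pole, which encodes the catalytic subunit of polymerase epsilon (0.33), and the primase subunits Prim1 (0.33) and Prim2 (0.29). Pola2 (0.24, SE 0.158) and Pold1 (0.30, SE 0.197), subunits of polymerases alpha and delta, were not called. Pola1, the catalytic subunit of polymerase alpha, did not pass either. It stood at 175, 141, 157 and 72.8 CPM in cKO and 168, 131 and 137 CPM in WT in set 2, against 121 and 128 CPM in cKO and 131, 111 and 73.0 CPM in WT in set 1. Here cKO replicate 6 and WT replicate 3 were far below the rest, and without cKO replicate 6 Pola1 was called (0.41, edgeR adjusted p = 0.00614, against 0.143 with all libraries). Without WT replicate 3 its log2 fold change was 0.20 (edgeR adjusted p = 0.328).

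The clamp Pcna was called (0.30), as were the loader subunits Rfc3 (0.45), Rfc4 (0.42), Rfc5 (0.28) and Rfc2 (0.19), while Dscc1 of an alternative loader was not (0.47, SE 0.210). Rfc1, the large subunit of the loader and the most read of this role, averaged 257 ± 8.31 CPM in set 2 (SD, n = 7) and 259 ± 17.2 CPM in set 1 (SD, n = 5), a log2 fold change of -0.0092 (SE 0.0534, edgeR adjusted p = 0.908). Its sign turned with the scaling (0.03 with upper-quartile scaling). The single-strand binding protein gave the same split between subunits: Rpa2 was called (0.25), and Rpa1 was not (-0.07, SE 0.0570), at 418 ± 22.3 CPM in set 2 (SD, n = 7) and 439 ± 33.2 CPM in set 1 (SD, n = 5). Lig1 was not called (0.06, SE 0.0815). Fen1, the nuclease that trims Okazaki fragments, was picked out after its values were seen and had the lowest value of the 48. It stood at 134, 148, 103 and 67.5 CPM in cKO and 95.8, 87.2 and 98.4 CPM in WT in set 2, against 133 and 124 CPM in cKO and 180, 113 and 114 CPM in WT in set 1. The log2 fold change was -0.37 (SE 0.153, edgeR adjusted p = 0.0562), just short of the threshold, and Fen1 was the member that limma-voom called lower (-0.39, adjusted p = 0.0408). Leaving out cKO replicate 3, cKO replicate 4 or WT replicate 3 also brought the edgeR call (adjusted p = 0.0361, 0.0134 and 0.0479).

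For nucleotide supply, 4 of 5 genes were called. Dut, which removes dUTP before it can be built into DNA, averaged 20.95 ± 2.09 CPM in set 2 (SD, n = 7) and 13.7 ± 1.99 CPM in set 1 (SD, n = 5), a log2 fold change of 0.61 (SE 0.112, edgeR adjusted p = 1.92e-04). Rrm2, the ribonucleotide reductase subunit that is made in S phase, was among the most read members, at 1443 ± 88.7 CPM in set 2 (SD, n = 7) and 1135 ± 54.4 CPM in set 1 (SD, n = 5). Its log2 fold change was 0.34 (SE 0.0503, edgeR adjusted p = 2.20e-05), with no overlap between the sets. Thymidylate synthase (Tyms, 0.43) and the other reductase subunit Rrm1 (0.21) were also called, and the uracil glycosylase Ung was not (0.37, SE 0.205). In the fork checkpoint, Tipin, a partner of Timeless at the fork, averaged 291 ± 33.0 CPM in set 2 (SD, n = 7) and 198 ± 14.9 CPM in set 1 (SD, n = 5), a log2 fold change of 0.56 (SE 0.0763, edgeR adjusted p = 8.28e-06). Clspn, the mediator that brings Chek1 to its activating kinase, was not called (-0.05, SE 0.0781). Slbp was called (0.36, edgeR adjusted p = 0.00311) and Uhrf1 was not, at 72.9 ± 15.4 CPM in set 2 (SD, n = 7) and 70.8 ± 16.1 CPM in set 1 (SD, n = 5), with a log2 fold change of -0.03 (SE 0.128) whose sign turned with upper-quartile scaling.

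Within each genotype the sets differed in the same direction. In cKO, 31 members were called higher in set 2 (64.6%, against 14.1% of all genes), and in WT 19 were (39.6%, against 13.3%). Ccnd1 changed by 1.45 in cKO (SE 0.120) and 1.12 in WT (SE 0.107), Chek1 by 0.94 (SE 0.108) and 0.55 (SE 0.0971), and Orc1 by 0.63 (SE 0.147) and 0.74 (SE 0.135). Mcm2 was called in cKO (0.55, SE 0.129) and not in WT (0.11, SE 0.119). Members with an E2F spelling were not those that were called more often: 7 of the 23 called members with a promoter window held one, and 8 of the 14 that were not called.

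The genotype difference itself was set against the library set by an interaction term, the cKO over WT change in set 2 minus that in set 1. It was called for 0 of the 48 genes in edgeR, DESeq2 and limma-voom, and edgeR called 0% of the whole table. It was higher, at an unadjusted p under 0.05, for 3 members (6.25%, against 1.71% of all genes) and lower for 0 (1.83% of all genes). Single libraries moved this count: it was 9 without cKO replicate 6 and 8 without WT replicate 3 or WT replicate 4. It was 2 without cKO replicate 4 or cKO replicate 5, and 1 without cKO replicate 2, WT replicate 1, WT replicate 5 or WT replicate 6. The count over all genes, both directions together, moved as well, from 464 with all libraries. It was 696 without cKO replicate 6, 484 without WT replicate 3 and 676 without WT replicate 4. Without WT replicate 5 it was 389, and without WT replicate 6 it was 348. It was 459 without WT replicate 1, 448 without cKO replicate 5, 435 without cKO replicate 2 and 398 without cKO replicate 4. The difference was above 0 for 41 members (85.4%, against 49.9% of all genes), with a median of 0.19. Within set 2, 43 of 48 cKO over WT changes lay above 0 (89.6%, against 49.6% of all genes; median 0.13), 12 of them at an unadjusted p under 0.05 (25%, against 3.76%), and 0 members were called (0.0153% of all genes). Within set 1, 18 of 48 lay above 0 (37.5%, against 49.6%; median -0.05), 0 were called (0% of all genes), and 1 member was lower at an unadjusted p under 0.05 (1.31% of all genes), Ccnd1, at -0.28 (edgeR, unadjusted p = 0.0289, adjusted p = 1.00). Set 2 without cKO replicate 4 gave 36 above 0 and 4 members higher at an unadjusted p under 0.05. Without WT replicate 6 it gave 41 and 4, and without WT replicate 5 it gave 43 and 6. It gave 45 and 17 without cKO replicate 6, and 46 and 16 without WT replicate 4. Set 1 without WT replicate 1 gave 26 above 0 and a median of 0.0065. It gave 15 and -0.0581 without WT replicate 2, and 13 and -0.0806 without WT replicate 3. Shares over all genes were not taken for these within-set fits.

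**Figure D4:**
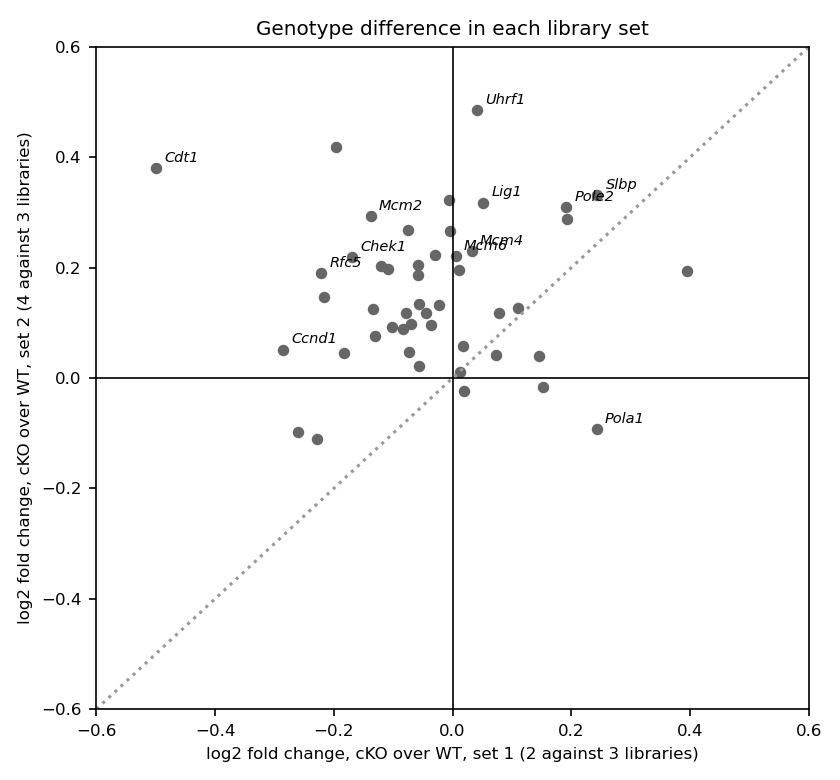
Log2 fold change of cKO over WT within set 2 (vertical axis) against that within set 1 (horizontal axis) for the 48 genes, with equal changes along the dotted line. The axes share no library. Most points lie above the horizontal zero line and on both sides of the vertical one: 43 are above 0 in set 2, and 18 are above 0 in set 1.

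The interaction was strongest relative to its error for Chek1 (0.39, SE 0.143, unadjusted p = 0.0137), Mcm2 (0.43, SE 0.174, unadjusted p = 0.0233), Ccnd1 (0.34, SE 0.155, unadjusted p = 0.0432) and Rfc5 (0.41, SE 0.207, unadjusted p = 0.0618), with an edgeR adjusted p of 0.9999 for each. Chek1 stood at 107, 128, 119 and 104 CPM in cKO against 105, 101 and 88.2 CPM in WT in set 2, and at 60.8 and 58.7 CPM in cKO against 63.2, 67.8 and 70.6 CPM in WT in set 1. In set 1 both cKO libraries were thus below all WT libraries, and in set 2 the genotypes overlapped. Mcm2 stood at 51.7, 61.5, 54.2 and 50.5 CPM in cKO against 51.1, 40.6 and 41.7 CPM in WT in set 2, and at 36.8 and 37.8 CPM in cKO against 45.8, 36.1 and 41.2 CPM in WT in set 1. In set 2 every cKO library was above every WT library for 5 members, Mcm4, Prim2, Lig1, Slbp and Uhrf1 (10.4%, against 3.89% of all genes), and below for 0 (3.96% of all genes). In set 1 both cKO libraries were above all 3 WT libraries for Gins1 (2.08%, against 7.83% of all genes) and below them for Orc6, Cdc45, Rfc4, Rfc5, Chek1 and Ccne1 (12.5%, against 8.36%).

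Single libraries stood out across many members. cKO replicate 4 was the highest of the 7 set 2 libraries for 39 members, against 18.4% of all genes tested, and had the smallest total of the 12 libraries. The lowest library in set 2 was cKO replicate 6 for 12 members (14.7% of all genes), WT replicate 6 for 20 (15.2%) and WT replicate 5 for 11 (12.1%). In set 1, cKO replicate 2 was the lowest for 16 members (20.2% of all genes) and WT replicate 1 the highest for 20 (21.8%). Between libraries of 1 genotype and set, the members nevertheless varied less than most genes, with a median standard deviation of 0.149 on the log2 CPM scale against 0.198 over all genes tested. It was smallest for Prim2 (0.0545), Rpa2 (0.0576) and Rrm1 (0.0696) and largest for Cdt1 (0.572), Pola1 (0.422) and Ung (0.405). Cdt1 and Ung are low genes, at most 9.04 and 10.1 CPM in any library. The members were not compared with genes of like level, so whether their smaller spread follows from their level was not tested.

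Other genes of replication moved with the same libraries. Of 42 tested replication genes outside the 48, 26 were higher and 0 lower in set 2 (median log2 fold change 0.30). The shares of all genes, against which this and the next 2 lists stand, were 21.5% higher and 22.2% lower. The largest changes among those called were in Chtf8 (1.18, SE 0.240), a subunit of an alternative clamp loader, in Cdc7 (0.76, SE 0.0659), the kinase that fires origins, and in Dna2 (0.65, SE 0.144), a nuclease and helicase. Other G1/S control genes split: of 29 tested, 11 were higher and 4 lower in set 2. The inhibitor Cdkn2b (1.25, SE 0.182), the phosphatase Cdc25a (0.50, SE 0.127) and the kinase Cdk2 (0.49, SE 0.0893) led those that were higher, and the inhibitor Cdkn2c (-0.53, SE 0.101), Tfdp2 (-0.50, SE 0.0792) and E2f6 (-0.41, SE 0.0970) those that were lower. Mitotic and G2/M genes differed less between sets, with 7 of 20 higher and 0 lower (median 0.04), led by Kif23 (0.52, SE 0.0736), Bub1 (0.32, SE 0.0646) and Aurkb (0.32, SE 0.0892). In cKO over WT 0 genes of these 3 lists were called in edgeR (0% of all genes). Above 0 lay 36 of 42, 19 of 29 and 20 of 20, against 49.6% of all genes. At an unadjusted p under 0.05, 3, 2 and 4 were higher, against 2.86% of all genes.

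Markers of other cell types moved with the library set as well. Of all genes, 21.5% were higher and 22.2% lower in set 2. Of 13 astrocyte markers 12 were lower in set 2 (median log2 fold change -0.74), and none of the 13 was at 0 in any library. Their summed level was 2128 to 3521 CPM in set 2 and 4844 to 6451 CPM in set 1. Gjb6 (-4.42), Gja1 (-2.05) and S100b (-1.62), named here for their values like the progenitor markers below, had the largest changes. Of 11 tested oligodendrocyte lineage markers 9 were lower (median -0.63), at 453 to 837 CPM in set 2 and 1122 to 1461 CPM in set 1. Mag was at 0 in 2 of the 12 libraries, cKO replicates 4 and 5 of set 2. Of 8 tested neuronal markers 7 were higher (median 1.00), at 410 to 542 CPM in set 2 and 215 to 257 CPM in set 1, and Rbfox3 was at 0 in 2 libraries. Progenitor markers went both ways, with 5 of 12 higher, among them Vim (1.08) and Nes (0.69), and 6 lower, among them Id4 (-1.90) and Hes5 (-1.07). Within set 2, cKO replicate 4, the highest library for most of the 48 genes, was also the lowest on the astrocyte list, at 2128 CPM, and on the mean log2 CPM of the oligodendrocyte list. In cKO over WT no marker was called in edgeR. Astrocyte markers lay below 0 in 13 of 13 cases (median -0.15, with 2 at an unadjusted p under 0.05). So did 7 of 11 oligodendrocyte (-0.21, with 3), 6 of 8 neuronal (-0.18, with 2) and 9 of 12 progenitor markers (-0.06, with 2). Of all 13105 genes, 6600 lay below 0, and 3.28% were lower at an unadjusted p under 0.05. Within set 2, where most of the 48 genes lay above 0, astrocyte markers lay below 0 in 13 of 13 cases (3 at an unadjusted p under 0.05), progenitor markers in 10 of 12 (3), neuronal markers in 6 of 8 (4) and oligodendrocyte markers in 7 of 11 (4). Summed astrocyte levels there were 2128 to 3314 CPM in cKO and 2903 to 3521 CPM in WT, and summed neuronal levels 410 to 541 CPM in cKO and 444 to 542 CPM in WT, so both overlapped. Within set 1, 8 of 13 astrocyte, 6 of 12 progenitor, 5 of 11 oligodendrocyte and 2 of 8 neuronal markers lay below 0. Of all 13105 genes 6596 did. There 1 neuronal marker was higher at an unadjusted p under 0.05 in edgeR, against 147 of all genes. Lists for intermediate progenitors, interneurons, microglia, blood vessels, meninges and ependyma had 1 to 3 tested genes each, too few to describe as groups. The part of these cell types in the differences of the 48 genes, between sets or genotypes, was not tested.

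**Figure D5:**
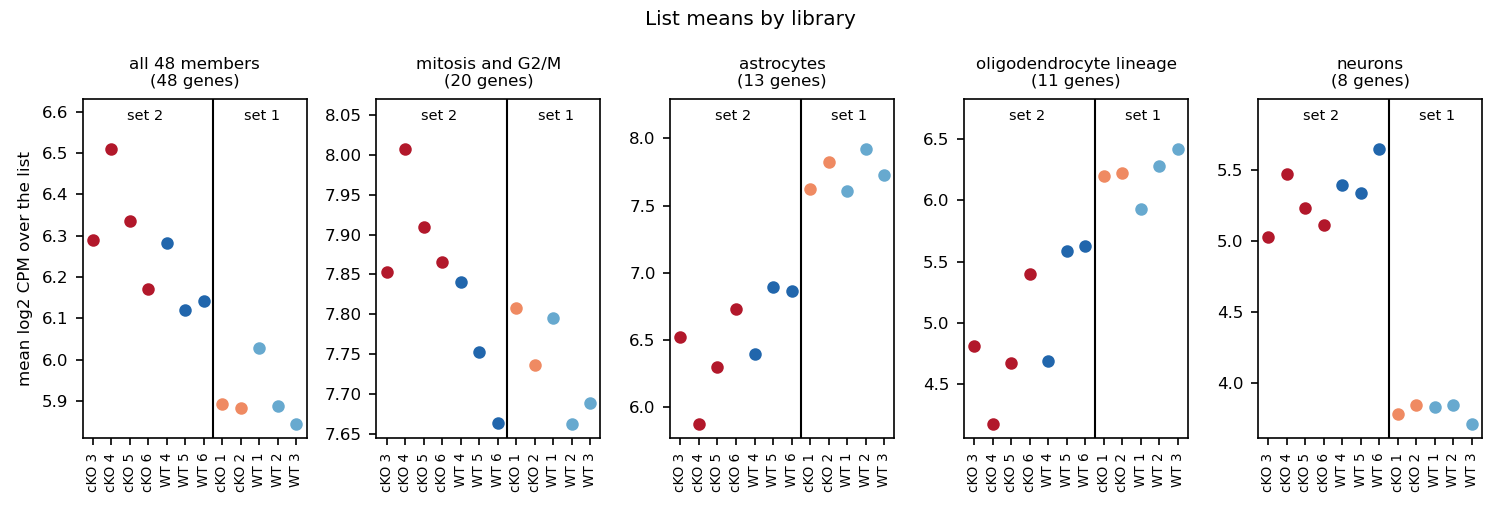
Mean log2 CPM of 5 gene lists in each RNA-seq library, with cKO left of WT within each set and set 2 left of set 1. The 48 genes and the neuronal markers are higher in set 2, the astrocyte and oligodendrocyte markers are lower in set 2, and the G2/M genes overlap between the sets, with cKO replicate 4 highest.

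HAC-seq gave a second readout, the share of reads at a cytidine that end there after cleavage. The table holds 516 cytidines in 19 of the 48 genes, and 62 of them, in 4 genes, had a coverage of at least 50 reads in each library and a mean cleavage of at least 5%. Of these, 55 lie in Ccnd1, 4 in Pcna, 2 in Rrm1 and 1 within Clspn. The Clspn site is on the strand opposite to that gene and is also annotated to a processed pseudogene, so it does not read the Clspn transcript. The result is mainly about cyclin D1, whose sites share 1 gene. Those from position 144930106 to 144931624 are also annotated to a second protein-coding gene. No site was called (0 of 62, against 0.00755% of all 13240 sites tested in the quasi-binomial model with dispersions squeezed by limma), with a lowest adjusted p of 0.575. At an unadjusted p under 0.05, 3 sites were higher (4.84%, against 6.62% of all sites) and 0 lower (2.02% of all sites) in cKO, neither share above that of all sites. Cleavage was higher in cKO at 38 of the 62 sites (61.3%, against 61.4% of all sites), and the median difference was 0.435 percentage points at these sites and 0.570 over all sites. The share of sites higher in cKO was thus that of the background.

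The 3 sites with the smallest p all lie in Ccnd1 on the minus strand of chromosome 7 (build GRCm38.p6). At position 144937983 cleavage was 11.3%, 3.28% and 10.7% in cKO against 2.80%, 2.67%, 6.17% and 5.29% in WT, at a coverage of 122 to 321 reads (unadjusted p = 0.0220). At position 144939559 it was 17.9%, 5.10% and 6.15% in cKO against 4.81%, 4.55%, 2.33% and 4.0% in WT, at a coverage of 255 to 520 reads (unadjusted p = 0.0241). At position 144930760, which is also annotated to the neighbouring Lto1, it was 16.8%, 6.87% and 8.14% in cKO against 4.94%, 3.58%, 6.01% and 6.32% in WT, at a coverage of 167 to 931 reads (unadjusted p = 0.0265). In the first of these sites the genotypes overlapped, and in the others the 3 cKO libraries lay above the 4 WT libraries, with cKO replicate 1 well above the rest. The sites were chosen for their small p, and how many of all sites separate the genotypes in this way was not counted. The quasi-binomial adjusted p was 0.575 for each.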

How the data were processed

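RNA-seq counts per gene were deposited by the authors as 1 table of whole-number counts for 12 libraries, unnormalized. Reads were handled with bcl2fastq 2.17.1.14, Trimmomatic 0.32 and STAR 2.5.2a and build GRCm38, per the submitters' processing notes, while the counting program and its strand setting are not stated there or in the labels. Of counts from 1 to 10, 17.45% were odd, against 50.11% of counts above 100 and up to 1000, and no label explains this. The HAC-seq table deposited by the authors (GRCm38.p6) gives a cleavage ratio as a fraction, read starts and coverage (signal) per cytidine.

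Counts were fitted in edgeR 4.0.16 (R 4.3.3), with TMM scaling, filterByExpr and a quasi-likelihood test of genotype and library set, over 13105 of 26621 genes. Another 4-group fit gave the within-set, within-genotype and interaction values. P-values were adjusted by Benjamini-Hochberg over all genes tested, and levels are TMM-scaled CPM (prior count 2 for log2 CPM). HAC-seq used a quasi-binomial model with variance squeezing from limma 3.58.1. The scripts were tested on simulated data. Alternatives were DESeq2 1.42.0, limma-voom, other scalings and filters, left-out libraries, a replicate block and single sets or genotypes.

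The 48 genes and the other lists were chosen with earlier results of these data known. Genes given in full were those with an unadjusted p under 0.05 or the 6 smallest (genotype), the 6 largest called changes (set), the smallest interaction p-values and the most read gene of each role. Replicate numbers did not pair samples. Ticrr, Map2 and Pifo were not analysed here.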

Additional observations from a re-analysis of the deposited data

Results flagged for a closer look

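Among 147 groups of values (each gene in the 6 cKO libraries, in the 6 WT libraries and in the 4 cKO libraries of set 2, and 3 HAC-seq sites in WT), 5 had 1 library far from its nearest neighbour by Dixon's criterion. Chance gives this in about 1 group in 20 of alike samples. The groups of 6 span both library sets, whose difference widens the range and can hide such a library, so no rate is read from the count. Both Prim1, a primase subunit, and Rfc2, a clamp loader subunit, were high in WT replicate 4, at 152.5 CPM for Prim1 against 122.6 CPM in the next WT library, and at 184 CPM for Rfc2 against 162 CPM. Fen1 and Uhrf1 were high in WT replicate 1, at 179.8 CPM for Fen1 against 113.6 CPM in the next WT library, and at 95.69 CPM for Uhrf1 against 64.46 CPM. Clspn was high in cKO replicate 2, at 44.16 CPM against 37.49 CPM in the next cKO library.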

How the results depend on the processing

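In cKO over WT, 0 of the 48 genes were called under 25 of 26 alternatives. Without the filter on low counts 1 was called higher (Uhrf1, edgeR adjusted p = 0.0405), where 20 of all 20312 genes were called higher and 45 lower. With library set 1 alone 18 values lay above 0 and the median was -0.05, and leaving out 1 library gave 32 to 43 above 0 and medians of 0.0245 to 0.0855. The interaction was called for 0 members under all 22 alternatives, with 37 to 44 above 0.

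In set 2 over set 1, 27 to 35 genes were called higher with 1 library left out. The 27 were without cKO replicate 2 (2424 of all 13236 genes) and the 35 without WT replicate 1 (2713 of all 13215). With WT libraries only 20 were called higher, against 1763 of all 13392 genes. A replicate block with library set left 3 called higher (Pola1, Pold1 and Ccnd1), of which 1 was among the 32, against 563 of all 13105 genes. In that fit only number 3 spans both sets, and the numbers do not pair samples: same-numbered libraries had correlations of -0.05 to 0.17, and 1 of 6 correlated best with its own number. In cKO over WT 0 of 48 were called with the block, against 2 of all 13105 genes. Fen1 was the 1 gene called lower with limma-voom, without the filter, with counts divided by 2, with WT libraries only and with both cKO replicate 4 and WT replicate 5 left out (chosen after seeing the data), and 0 to 1 were called with 1 library left out.

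The sign of small values turned. Rfc1 was at 0.0273 with upper-quartile scaling, 0.019 with library size only, 0.1502 with the block, 0.0095 with WT libraries only, 0.0088 with both libraries out, and -0.0389 to 0.0244 with 1 left out. Uhrf1 was at 0.0035 with upper-quartile scaling, 0.4709 with the block, 0.2148 with cKO libraries only, and -0.0958 to 0.1321 with 1 left out. Rpa1 was at 0.0275 with the block. The causes were not tested. In HAC-seq 0 member sites were called in any alternative, and sites under the coverage minimum were not read.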
